A study of Homo sapiens with 3 samples.

Results

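Ribosome footprint peaks lying in the first exon of genes with more than 1 exon were examined in HEK293T, a cell line from human embryonic kidney. A peak is a short stretch of the genome where the coverage by sequenced ribosome footprints reached the study's cut-off. The members were the peaks annotated as exonic whose annotation named exon 1 of a transcript with at least 2 exons, and they numbered 3484 of 46819 listed peaks (7.44%). Of these, 663 came from cells with empty pCDNA3.1 vector, 1154 from cells with FLAG-tagged wild-type DDX3X in that vector, and 1667 from cells with FLAG-tagged DDX3X G325E. Each group was 1 library made 24 h after transfection, every group kept its own endogenous DDX3X, and every culture received harringtonine (2 µg/ml, 90 s) and then cycloheximide (100 µg/ml) per the labels, whereas the methods of the study name cycloheximide alone. With no replicates there was no test between lists. Intervals below are 95% intervals that cover counting error only, and peaks of 1 gene are not independent of each other.

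The DEAD-box helicase DDX3X opens RNA structure and takes part in translation, and G325E is a missense change in its helicase core. The first exon of a gene usually holds the 5′ untranslated region, the start codon and the opening codons. Footprints close to the start codon come from ribosomes that are starting or have just begun elongation. Those further along a long first exon come from ribosomes already elongating. First exons are often rich in G and C because many lie in CpG islands, and harringtonine halts ribosomes that have just initiated while those already elongating run off. The annotation used gave the class promoter-TSS to a peak close to a transcription start before any exon class, and no member lay nearer than 100 bases to the start of its transcript, so the members sample first exons beyond that distance.

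The stretches at which peaks of all 3 lists met are shown for the 6 genes with the most first-exon peaks that had such a stretch and could be printed. Letters are the GRCh37 reference, on the strand of the gene and 5′ to 3′. Capitals mark bases inside a peak of every list, and lower case marks adjoining bases inside a peak of at least 1 list.
ZIC5, chr13:100622462-100622531, minus strand, coding bases 1327 to 1396: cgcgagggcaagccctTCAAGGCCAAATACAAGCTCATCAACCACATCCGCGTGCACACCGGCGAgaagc
IRF2BP2, chr1:234744302-234744595, minus strand, coding bases 646 to 939: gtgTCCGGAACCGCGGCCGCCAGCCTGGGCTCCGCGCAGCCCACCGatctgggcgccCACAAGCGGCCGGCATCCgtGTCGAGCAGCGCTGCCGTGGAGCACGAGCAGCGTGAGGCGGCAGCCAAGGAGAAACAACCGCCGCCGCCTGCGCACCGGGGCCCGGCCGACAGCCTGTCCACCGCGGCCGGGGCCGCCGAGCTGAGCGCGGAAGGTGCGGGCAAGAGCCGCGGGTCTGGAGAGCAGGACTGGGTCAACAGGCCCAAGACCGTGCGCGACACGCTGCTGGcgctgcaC
CPEB2, chr4:15004802-15004841, plus strand, coding bases 505 to 544: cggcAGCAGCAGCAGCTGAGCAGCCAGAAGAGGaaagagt
MAF, chr16:79633421-79633581, minus strand, coding bases 219 to 379: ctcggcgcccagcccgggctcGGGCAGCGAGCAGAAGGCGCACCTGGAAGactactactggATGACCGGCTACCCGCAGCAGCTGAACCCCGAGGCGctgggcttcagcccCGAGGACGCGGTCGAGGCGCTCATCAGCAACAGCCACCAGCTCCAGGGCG
TPRN, chr9:140094207-140094228, minus strand, coding bases 936 to 957: ggGGGACCTCCAGGCCCGGGCG
NOA1, chr4:57843221-57843308, minus strand, coding bases 444 to 531: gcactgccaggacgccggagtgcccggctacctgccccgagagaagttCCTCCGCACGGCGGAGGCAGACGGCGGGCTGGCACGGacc

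The next sequences show peaks over a start codon, the landmark the position results turn on. The start codon was covered in every list in 85 genes, and 4 of them, those with the most first-exon peaks whose shared stretch could be printed, are given from 9 bases before the start codon to the end of the stretch that all 3 lists covered. Capitals mark the ATG.
SLC7A5, chr16:87902890-87903037, minus strand: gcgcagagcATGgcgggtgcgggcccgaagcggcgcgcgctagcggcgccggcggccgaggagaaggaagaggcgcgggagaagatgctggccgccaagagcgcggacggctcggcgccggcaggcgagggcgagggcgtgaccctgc
ID4, chr6:19837977-19838010, plus strand: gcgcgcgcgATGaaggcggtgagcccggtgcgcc
BOD1, chr5:173043388-173043448, minus strand: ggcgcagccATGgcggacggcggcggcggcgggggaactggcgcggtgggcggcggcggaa
CCDC6, chr10:61666120-61666191, minus strand: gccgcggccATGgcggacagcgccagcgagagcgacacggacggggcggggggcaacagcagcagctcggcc

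The last pair shows the longest G325E peak on the gene's strand in each of the 2 genes whose first-exon peak number was most above that of wild-type, ZIC2 in full and TAF4 as the 300 bases at its 3′ end. Capitals mark the hexamers that repeat CGG or CCG, which are counted further on.
ZIC2, chr13:100634851-100634961, plus strand, coding bases 533 to 643: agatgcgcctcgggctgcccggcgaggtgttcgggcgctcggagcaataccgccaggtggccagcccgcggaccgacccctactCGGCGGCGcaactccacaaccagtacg
TAF4, chr20:60639748-60640047, minus strand, coding bases 820 to 1119: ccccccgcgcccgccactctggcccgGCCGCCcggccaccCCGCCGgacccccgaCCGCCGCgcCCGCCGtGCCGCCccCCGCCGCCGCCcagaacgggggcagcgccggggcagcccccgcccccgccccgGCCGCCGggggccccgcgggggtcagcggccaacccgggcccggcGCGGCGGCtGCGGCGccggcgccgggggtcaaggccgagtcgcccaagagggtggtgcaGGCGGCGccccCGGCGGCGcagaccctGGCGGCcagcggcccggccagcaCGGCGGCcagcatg
The TAF4 stretch was 87.7% G and C and the ZIC2 stretch 71.2%, and the 6 stretches shared by the 3 lists ranged from 60% in ZIC5 and CPEB2 to 86.4% in TPRN.

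The lists held 11219 (vector), 19920 (wild-type) and 15680 (G325E) peaks, and they give no read totals. The study states totals for the libraries, which were unequal, and they were not used here. Peaks are numbered along the genome, and the vector and wild-type lists skip 1952 and 3099 numbers (14.8% and 13.5%), whereas the G325E list skips none. The peaks with those numbers were not analysed here. Stretches with skipped numbers in the vector or wild-type list held 33.7% of all G325E peaks and 40.3% of the G325E first-exon peaks, so shares, overlaps, GC content, gene numbers and start codon shares are also given without those stretches. The overexpressed gene itself, DDX3X, had no first-exon peak in any list, and its later exons held 0, 31 and 9 peaks in vector, wild-type and G325E. Its canonical first exon is 136 bases long and no member lay nearer than 100 bases to a transcription start. Little of that exon could thus hold a member. The labels call the cells neuronal. Of 12 neuronal markers, NEFL, NEFM and TUBB3 had peaks in each list and the other 9 had none in any. Of 8 kidney epithelial markers only KRT8 and KRT18 had peaks, 12 in all and in the wild-type list alone, while VIM was the only one of 3 mesenchymal markers with peaks (18, 20 and 19). None of the 3 blood or 2 liver markers had a peak.

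First exons held a larger part of the exon peaks in the cells with DDX3X G325E. Of the exon peaks in multi-exon genes, 33.2% lay in the first exon for G325E (1667 of 5027, interval 31.9 to 34.5%), 11.7% for wild-type (1154 of 9839, 11.1 to 12.4%) and 12.7% for vector (663 of 5219, 11.8 to 13.6%). G325E was above wild-type by 21.4 percentage points (19.99 to 22.9) and above vector by 20.5 (18.9 to 22.0), whereas the interval of the wild-type minus vector difference, -0.97 points (-2.09 to 0.12), held 0. That last interval lay below 0 in genes with exon peaks in every list (-1.84, -3.40 to -0.30), with promoter-TSS coding peaks added (-1.62, -2.81 to -0.46) and with exon numbers of the canonical transcript (-1.22, -2.36 to -0.10). Internal exons took 49.3% of the exon peaks for G325E, 70.6% for wild-type and 68.6% for vector, while last exons took 17.5%, 17.6% and 18.7%. Measured over all peaks, first exons took 10.6% for G325E, 5.79% for wild-type and 5.91% for vector. In number, G325E had 513 more first-exon peaks than wild-type although its internal exon peaks were 4471 fewer. Outside the stretches of skipped numbers the excess was 62, with 996 first-exon peaks for G325E and 934 for wild-type.

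**Figure D1:**
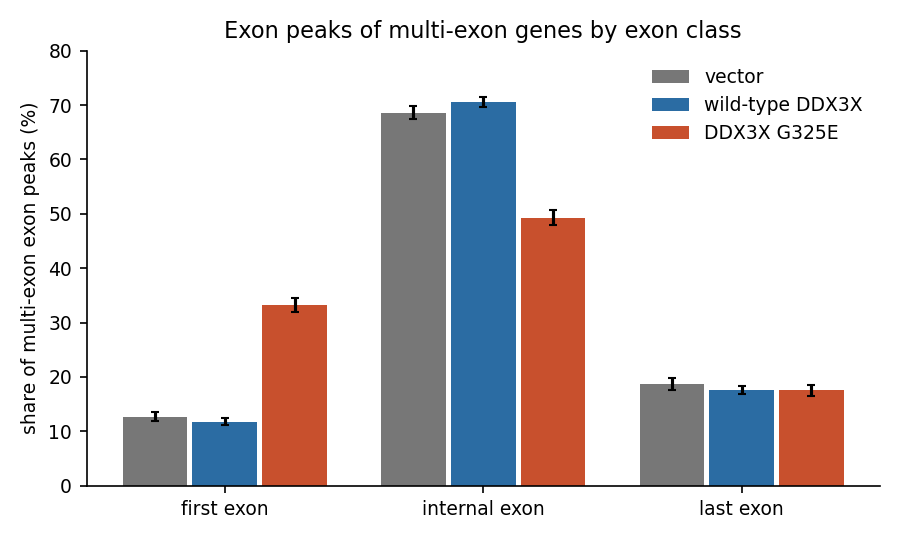
Share of the exon peaks of multi-exon genes (y axis, percent) in first, internal and last exons for the 3 lists, 1 library each, with 95% Wilson intervals as error bars. The G325E bar for first exons stands at 33.2%, above 11.7% and 12.7%, and the last exon bars lie between 17.5% and 18.7%.

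The size of this difference depended on the genes and the base composition of the peaks. Among the 749 genes with an exon peak in every list, first exons took 22.4% of the peaks for G325E, 13.3% for wild-type and 15.2% for vector, which left G325E 9.02 points above wild-type. Giving 10 classes of GC content the same weights in each list gave 23.1%, 14.3% and 15.0%, a difference of 8.82 points from wild-type (7.58 to 10.1). Both restrictions together, a choice made after seeing the data, gave 18.1%, 15.2% and 16.3%, and G325E was then 2.89 points above wild-type (1.35 to 4.42) and 1.85 above vector (0.22 to 3.48). Without the stretches of skipped peak numbers G325E stood 15.6 points above wild-type (14.1 to 17.2). In bases covered instead of peaks, first exons took 38.4% for G325E (97433 bases), 13.1% for wild-type (57302) and 14.6% for vector (34842).

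The first-exon peaks fell in 866 named genes, of which 250 had one in every list. They were found in 666 genes for G325E, 561 for wild-type and 352 for vector, and these were 52.9%, 28.0% and 28.0% of the genes with any multi-exon exon peak in the same list. Without the stretches of skipped numbers the genes numbered 462 for G325E and 463 for wild-type, so the excess of G325E over wild-type was not present there. The G325E list alone gave a first-exon peak to 248 genes (37.2% of its first-exon genes), the wild-type list alone to 125 (22.3%) and the vector list alone to 30 (8.52%). No such count over all exon classes was made, so these shares are not read as particular to first exons. The vector and wild-type lists skip numbers and G325E skips none, so these counts are not on an equal footing. Of the 666 G325E genes, 275 (41.3%) had no first-exon peak in wild-type. The background was the same count over all pairs of a gene and an exon class (first, internal or last) with a peak in G325E, of which 26.0% had none in wild-type. In 92 of the 272 genes that could be placed, the wild-type list skipped a peak number between the listed peaks flanking the first exon. Against vector, 389 of the 666 (58.4%) had none, beside 40.3%. In the other direction, 170 of 561 wild-type genes (30.3%) had none in G325E, beside 56.1%, and 75 of 352 vector genes (21.3%) had none in G325E, beside 42.6%. Between the lists without the mutant, 266 of 561 wild-type genes (47.4%) had none in vector, beside 43.3%, and 57 of 352 vector genes (16.2%) had none in wild-type, beside 7.96%. The share of first-exon genes without a counterpart was thus above the background for G325E genes, and also for wild-type and vector genes set against each other. It was below the background for wild-type and vector genes set against G325E.

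Most genes had few first-exon peaks. A single peak was all that 54.8% of the genes had for vector, 51.2% for wild-type and 43.1% for G325E, and 57 genes had 10 or more over the 3 lists together. In the 10 genes at the top of that order the first exon held between 418 and 1725 coding bases. ZIC5, a zinc finger transcription factor of neural development, had 10 peaks for vector, 12 for wild-type and 11 for G325E, covering 353, 474 and 696 of the 1477 coding bases of its first exon. IRF2BP2, a transcriptional corepressor, had 10, 9 and 10 peaks, and its covered bases were 564, 686 and 720. MAF, a basic leucine zipper transcription factor, had 9, 8 and 10 peaks over 346, 322 and 683 bases. In these 3 genes the peak numbers of the lists lay within 2 of each other while the covered length was longest in G325E. The vector and wild-type lists skipped 2 and 3 numbers around the first exon of ZIC5, 1 and 12 around that of IRF2BP2, and 9 and 11 around that of MAF.

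CPEB2, which binds cytoplasmic polyadenylation elements in mRNAs, had 6 peaks for vector, 8 for wild-type and 14 for G325E. TPRN, which encodes taperin of the inner ear hair cell, had 7, 6 and 13. PGRMC2, a membrane protein that binds heme, had 7, 4 and 10. G325E held the highest number in each of these. HOXB9, a homeobox transcription factor, had 6, 9 and 7 peaks, and NOA1, a mitochondrial GTPase, had 6, 11 and 6, so that wild-type was highest there. NEFL, the neurofilament light chain, had 6, 7 and 9 peaks over 811, 911 and 906 bases. HOXB9 was the only gene of these 6 without a skipped number beside its first exon in either list.

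The genes with the largest excess of G325E over wild-type, scaled to 1000 exon peaks and picked for that excess, were ZIC2, TAF4, FBXL17, FSCN1 and PCDH7. ZIC2, a relative of ZIC5 that lies next to it on chromosome 13, had 15 first-exon peaks over 763 bases in G325E and none in wild-type or vector. Its later exons held 4 peaks for G325E, 4 for wild-type and none for vector, and the wild-type list skipped 4 numbers in the stretch around the first exon. TAF4, a subunit of the general transcription factor TFIID, had 16 peaks for G325E, 5 for wild-type and none for vector. Those peaks covered 1054 of 1360 coding bases in G325E and 207 in wild-type, and vector and wild-type skipped 3 and 7 numbers around this exon. FBXL17, an F-box substrate receptor of a ubiquitin ligase, had 14, 5 and 0 in the same order, and 6 of the 14 lay on the strand opposite to the gene. Around its first exon vector skipped 1 number and wild-type 3. FSCN1, the actin-bundling protein fascin, and PCDH7, a protocadherin of cell adhesion, had 10 each in G325E and none in the other lists. Neither the vector nor the wild-type list skipped a number around the first exon of PCDH7, and wild-type skipped 1 around that of FSCN1.

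The genes with the largest excess of wild-type over G325E, picked in the same way, were AMOT, MEPCE, NUDT11, PPP1R9B and RCN1, the last tied with CPOX, KRT18, TMEM115, WNK2 and ZNF622 and taken for its higher total. AMOT, the Hippo pathway scaffold angiomotin, had 13 first-exon peaks in wild-type and none in the other lists, and they lay in the first exon of a transcript other than the canonical one, whose exon 1 is noncoding. MEPCE, which caps the 7SK RNA, had 9 in wild-type alone and NUDT11, a hydrolase of diphosphoinositol phosphates, 7. PPP1R9B, the phosphatase scaffold spinophilin, had 12 for wild-type and 3 for G325E and none for vector. RCN1, a calcium-binding protein of the endoplasmic reticulum, had 5 for vector and 6 for wild-type but none for G325E, and G325E skips no peak number.

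**Figure D2:**
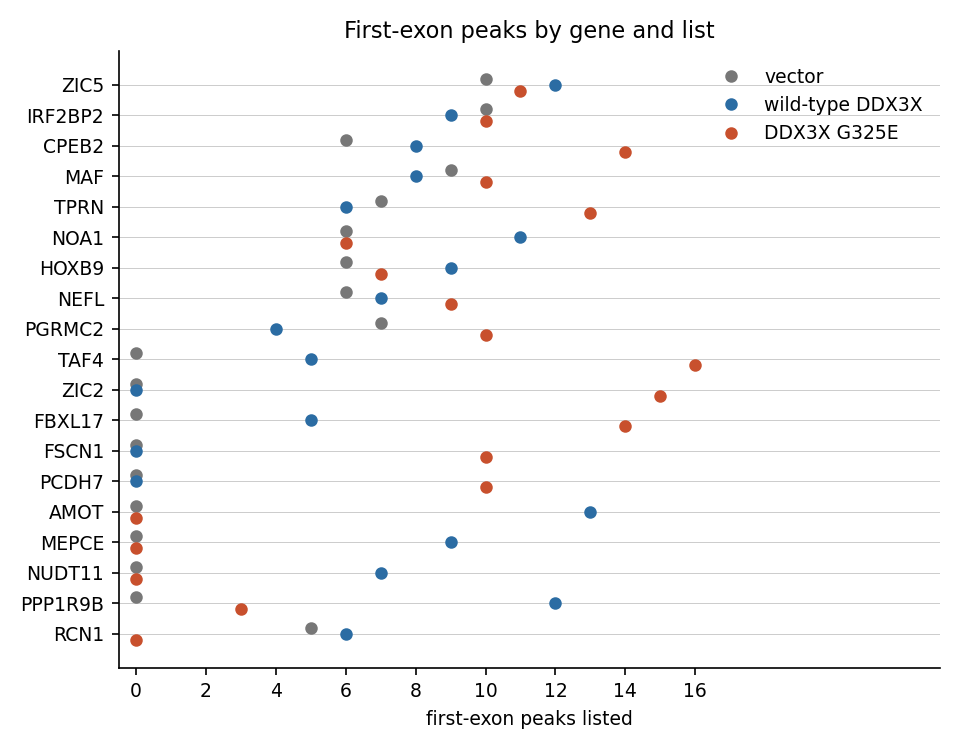
Number of first-exon peaks listed (x axis) for the 10 genes with most such peaks, followed by the genes with the largest excess in G325E and in wild-type (y axis), 1 point per list. ZIC5, IRF2BP2 and MAF have similar numbers in the 3 lists, ZIC2 reaches 15 in G325E against 0 in the others, and AMOT reaches 13 in wild-type against 0.

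**Figure D3:**
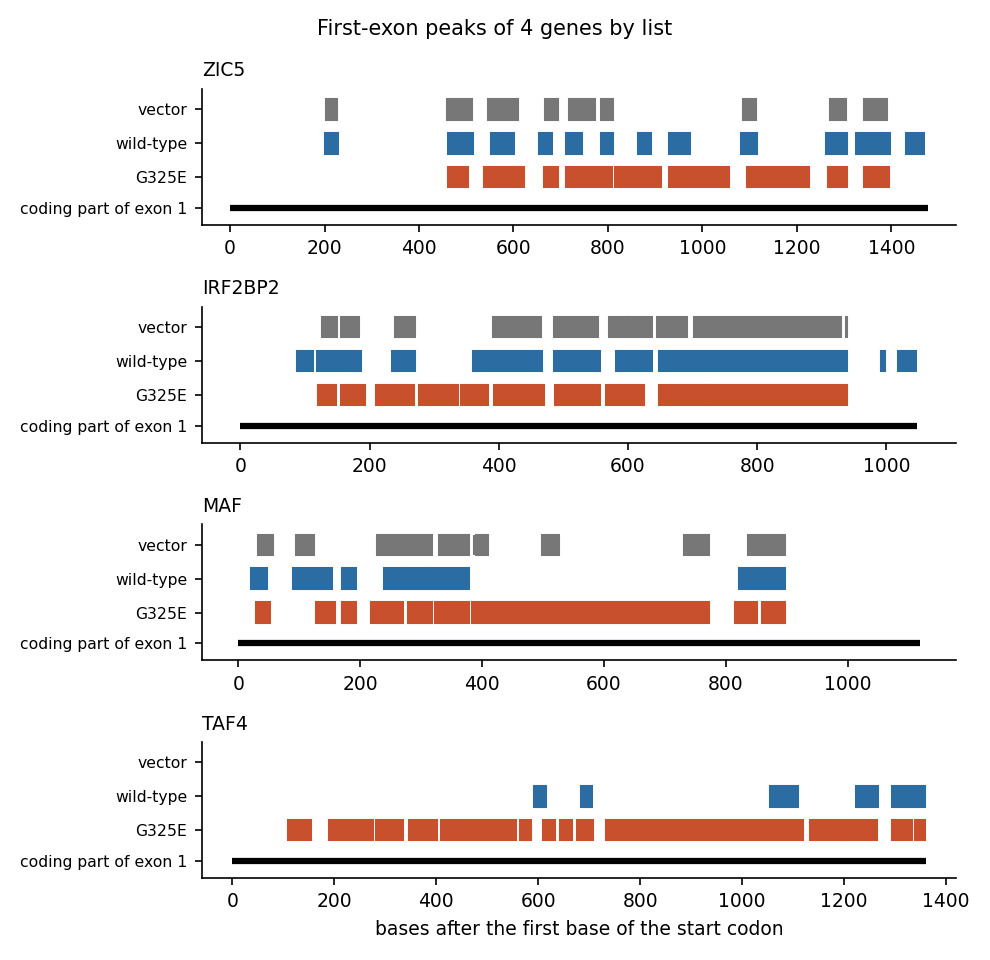
Position of each first-exon peak (blocks, drawn to scale) along the coding part of exon 1 (black line), in bases after the first base of the start codon, for ZIC5, IRF2BP2, MAF and TAF4 in the 3 lists. Many blocks of different lists stand over the same stretches in the first 3 genes. In MAF, however, G325E blocks fill a stretch without a wild-type block, and in ZIC5 the blocks nearest the start codon are of vector and wild-type only. In TAF4 the G325E blocks cover most of the coding part while vector has none.

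Among the 250 genes with a first-exon peak in every list, the covered length per gene differed less than the number of genes did. Its median was 87 bases for vector (quartiles 57 and 142), 96 for wild-type (54 and 147) and 112 for G325E (61 and 209). G325E covered more bases than wild-type in 133 genes, fewer in 96 and as many in 21, with a median log2 ratio of 0.03. Against vector it covered more in 154 and fewer in 79 (median log2 ratio 0.10).

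First-exon peaks lay close to the start codon in each list. The choice of members bounds this distance, since they had to lie in exon 1 and its length limits it. On the canonical GENCODE transcript, 96.8% of the vector peaks, 97.7% of the wild-type peaks and 96.7% of the G325E peaks had their midpoint in coding sequence, and midpoints in the 5′ untranslated region numbered 3, 4 and 10. The annotation has a class of its own for peaks in 5′ untranslated regions, which the rule left out, so the near absence of such midpoints comes from the choice of members. The median midpoint was 114 bases after the first base of the start codon for vector (quartiles 47 and 252), 126 for wild-type (57 and 271) and 144 for G325E (63 and 294). The start codon itself was covered by 21.2% of the vector peaks (139 of 656, 18.2 to 24.5%), 17.0% of the wild-type peaks (195 of 1149, 14.9 to 19.3%) and 15.9% of the G325E peaks (261 of 1646, 14.2 to 17.7%). G325E minus wild-type was -1.11 points (-3.95 to 1.65), an interval that held 0, and G325E minus vector was -5.33 (-9.03 to -1.85). Wild-type minus vector was -4.22 points (-8.10 to -0.49). In genes with exon peaks in every list these differences from vector were -2.01 (-6.62 to 2.49) and -2.19 (-6.93 to 2.50), and both intervals held 0. Without the stretches of skipped numbers they were -4.97 (-9.17 to -0.92) and -4.00 (-8.26 to 0.13).

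Codons 1 to 20 held the midpoints of 29.5% of the vector peaks, 25.4% of the wild-type peaks and 23.1% of the G325E peaks. G325E minus vector was -6.40 points in this window (-10.5 to -2.41), but with the 5′ end of each peak in place of its midpoint the difference was 0.026 points (-3.59 to 3.40). From base 120 up to 180 the shares were 13.8%, 14.4% and 14.4%. From base 240 up to 300 they were 5.27% for vector (3.80 to 7.28%), 5.83% for wild-type (4.61 to 7.35%) and 8.38% for G325E (7.13 to 9.83%). Beyond 600 bases the lists stood at 6.82%, 7.77% and 7.03%.

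**Figure D4:**
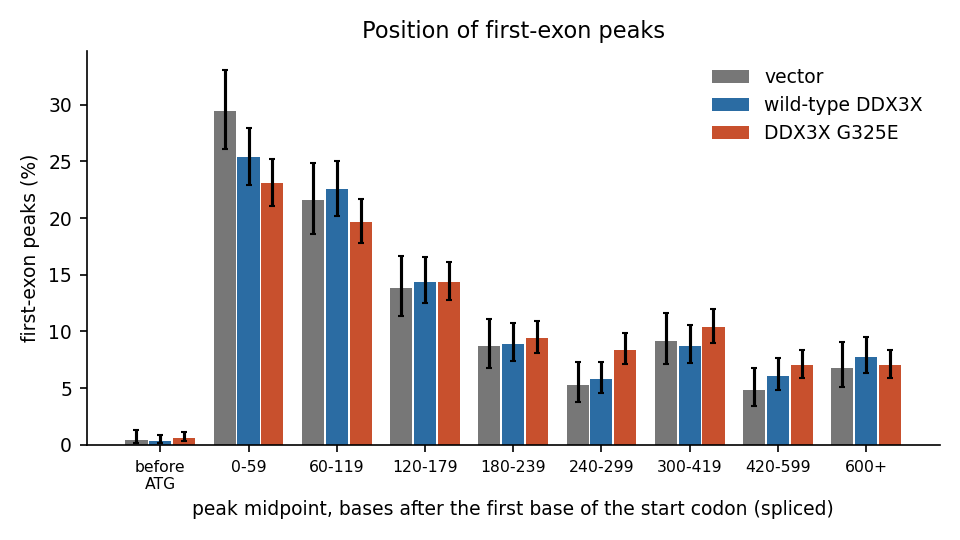
Share of first-exon peaks (y axis, percent of the peaks of a list that could be placed) by the distance of the peak midpoint from the first base of the start codon along the spliced canonical transcript (x axis, bases; bins from 300 bases on are wider), with 95% Wilson intervals. All lists are highest at bases 0 to 59, with 29.5%, 25.4% and 23.1%, and the low bars before the start codon come from the choice of members, since 5′ untranslated peaks have their own annotation class.

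From the transcription start, the median distance was 311 bases for vector (quartiles 192 and 504), 313 for wild-type (199 and 518) and 337 for G325E (212.5 and 511). The part within 300 bases was 48.9%, 48.2% and 43.7%. The listed distances carry the sign of the peak strand, so their size was used. The canonical first exons holding the members had a median length of 372 bases for vector, 380 for wild-type and 487 for G325E, counted once for each peak. The peaks had a median length of 38, 37 and 42 bases, beside 35, 34 and 35 for internal exon peaks.

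First-exon peaks were richer in G and C than other exon peaks of the same list, and their mean GC content was highest in G325E. In windows of 31 bases centred on the peak, mean GC content was 69.3% ± 10.1 for vector (SD over 663 peaks), 69.3% ± 10.0 for wild-type (1154 peaks) and 74.8% ± 10.4 for G325E (1667 peaks). The G325E mean exceeded that of wild-type by 5.57 points (4.80 to 6.33) and that of vector by 5.52 (4.60 to 6.44), while wild-type minus vector was -0.05 (-1.01 to 0.92). Internal exon peaks had 56.4%, 55.9% and 62.5%, and last exon peaks 57.9%, 57.5% and 66.4%, so G325E was higher in every exon class. Over all peaks the means were 62.7%, 62.3% and 73.1%. More than 70% GC was found around 70.3% of the first-exon peaks of G325E, against 51.0% in vector and 49.8% in wild-type.

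At like GC content the first-exon share was still higher in G325E. In the class from 58.1 to 61.3% GC, first exons took 16.8% of the exon peaks for G325E (13.3 to 20.9%), 7.33% for wild-type (5.84 to 9.16%) and 8.36% for vector (6.31 to 11.0%). In the richest class, above 77.4%, they took 61.1% (58.4 to 63.7%), 45.0% (41.3 to 48.7%) and 47.7% (42.8 to 52.6%). The G325E interval lay above that of wild-type in 8 of the 10 classes, and the G325E peaks in the richest class were themselves richer, with a mean of 83.2% against 80.8% in both other lists.

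**Figure D5:**
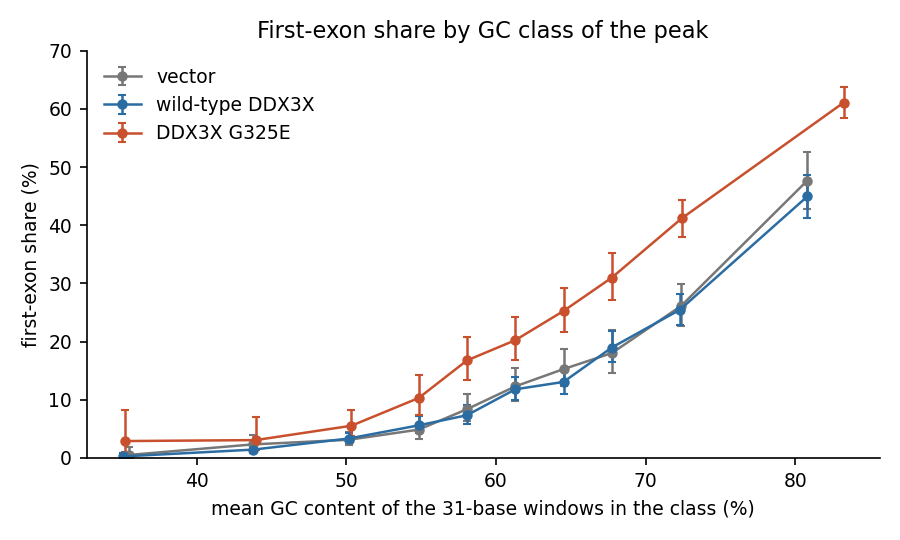
First-exon share of the exon peaks of multi-exon genes (y axis, percent) in 10 classes of GC content, placed at the mean GC content of the 31-base windows of each list in the class (x axis, percent), with 95% Wilson intervals. The share climbs with GC content in each list, to 45.0% for wild-type and 47.7% for vector, 61.1% for G325E.

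Triplet repeats of C and G, which are common in the opening codons of human genes as runs of alanine, glycine and proline codons, were more frequent in the G325E windows. On the gene's strand, CGGCGG or GGCGGC or GCGGCG occurred in 23.3% of the first-exon windows of G325E (388 of 1667, 21.3 to 25.4%), 13.9% of those of wild-type (11.99 to 16.0%) and 15.5% of those of vector (13.0 to 18.5%). The reverse complements, CCGCCG or GCCGCC or CGCCGC, occurred in 18.4%, 10.6% and 14.0%. These forms overlap each other within a run, and a window was counted once for each group of 3. In internal exon windows the first group occurred in 4.52%, 2.33% and 2.51% in the same order, in last exon windows in 9.65%, 3.17% and 3.49%, and over all peaks in 17.1%, 6.84% and 7.88%. The second group occurred in 5.65%, 2.45% and 2.71% of the internal exon windows, 9.53%, 3.40% and 3.18% of the last exon windows and 13.8%, 5.79% and 6.12% of all windows.

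Overlap by at least 1 base between lists differed by exon class. Of the G325E first-exon peaks, 43.8% met a wild-type peak (41.4 to 46.2%) and 29.3% a vector peak (27.2 to 31.6%), whereas 77.8% and 62.0% of the G325E internal exon peaks did so. The reverse order held for wild-type, where 62.2% of the first-exon peaks (59.4 to 65.0%) but 24.8% of the internal exon peaks met a G325E peak, and for vector, with 74.96% of the first-exon peaks and 40.0% of the internal exon peaks. Read as peaks without a counterpart, 56.2% of the G325E first-exon peaks met no wild-type peak beside 52.7% of all G325E peaks, and 70.7% met no vector peak beside 64.6%. Of the wild-type first-exon peaks 37.8% met no G325E peak beside 65.1% of all, and 56.9% met no vector peak beside 58.4%. Of the vector first-exon peaks 25.04% met no G325E peak beside 51.9% of all, and 21.7% met no wild-type peak beside 23.2%. The shares of wild-type and vector peaks without each other were thus near the background, and those against G325E were below it. Leaving out the stretches of skipped numbers, 58.2% of the G325E first-exon peaks met a wild-type peak.

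A peak of each other list was met by 425 vector first-exon peaks (64.1%), 409 of wild-type (35.4%) and 432 of G325E (25.9%). The same shares over all peaks were not computed, so neither these shares nor those meeting neither list are read as a trait of first exons. Of the 1667 G325E first-exon peaks, 671 (40.3%) lay in stretches where another list skips numbers. The groups below were not split by this. The 880 G325E first-exon peaks (52.8%) that met neither list had a mean GC content of 77.0% ± 10.5 (SD) and lay at a median of 157 bases from the start codon. The 432 that met both had 71.2% ± 9.72 and lay at 115 bases. In wild-type the 348 that met neither had 66.7% ± 9.40, below the 70.6% ± 9.63 of those that met both. The peaks that met neither were shorter, with medians of 38 against 53 bases in G325E and 28 against 53 in wild-type. Start and end were identical for 57 first-exon peaks of G325E and wild-type, 44 of G325E and vector and 50 of wild-type and vector. The 57 were 3.42% of the G325E first-exon peaks beside 5.06% of all G325E peaks, and 4.94% beside 3.99% for wild-type. The 44 were 2.64% beside 4.15% for G325E and 6.64% beside 5.80% for vector. The 50 were 4.33% beside 6.88% for wild-type and 7.54% beside 12.2% for vector.

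Genes with first-exon peaks often had no peak in a later exon. That was so of 79.0% of these genes for G325E (526 of 666), 61.0% for wild-type (342 of 561) and 65.1% for vector (229 of 352). In the 391 genes with a first-exon peak in both G325E and wild-type, the first exon held 991 peaks in G325E and 838 in wild-type, while the later exons held 389 and 821. The first-exon share within these genes was 71.8% in G325E (69.4 to 74.1%) and 50.5% in wild-type (48.1 to 52.9%). It was higher in G325E in 118 genes, lower in 25 and equal in 248, of which 234 had no later-exon peak in either list. In the 277 genes shared with vector, the first exon held 686 peaks in G325E and 536 in vector, and the later exons 306 and 406. In the 295 genes shared by wild-type and vector, the first-exon share was 47.3% in wild-type and 55.5% in vector. IRF2BP2 had 8 later-exon peaks in wild-type and none in the other lists, and the RNA-binding proteins HNRNPDL and HNRNPUL2 had 4 each in wild-type alone.

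Gene groups differed in how often their exon peaks lay in the first exon. Over all 2339 genes with an exon peak, 37.0% had a first-exon peak in some list. Among ribosomal protein genes it was 4 of 67 (5.97%), and their first-exon share of exon peaks was 0.70% for vector, 1.04% for wild-type and 1.01% for G325E. These genes have short first exons and many pseudogenes with which reads can be shared. Neither feature was tested as a source of these figures. RPL36 had 1 first-exon peak in each list, and RPLP1 1 in wild-type and 1 in G325E. Among DEAD and DEAH helicases 2 of 20 genes had a first-exon peak. DDX17 had 3, 2 and 4 in vector, wild-type and G325E, and DDX50 had 1 in wild-type alone. The vector list skipped 4 numbers around the first exon of DDX17 and 1 around that of RPLP1. The helicases held 3 first-exon peaks among 17 exon peaks for vector, 3 among 102 for wild-type and 4 among 29 for G325E. Both groups lay below the figure for all genes.

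Developmental transcription factors lay above it, with 20 of 31 genes (64.5%). All 20 had a first-exon peak for G325E, with 7 of them for wild-type and 6 for vector, and the factors with any exon peak numbered 26, 16 and 10 in these lists. They held 117 first-exon peaks among 160 exon peaks for G325E (73.1%), 43 among 81 for wild-type (53.1%) and 26 among 39 for vector (66.7%), so the intervals of G325E (65.8 to 79.4%) and vector (51.0 to 79.4%) overlapped. ZIC5 and HOXB9, the leading members, were described above.

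Among the other groups, chromatin remodellers and histone modifiers had first-exon peaks in 10 of 21 genes, 9 of them for G325E, 6 for wild-type and 3 for vector. Their first-exon share of exon peaks was 56.2% for G325E (18 of 32), 9.09% for wild-type (10 of 110) and 7.81% for vector (5 of 64). MLL3, a histone H3 methyltransferase, had 2 peaks for G325E, 2 for wild-type and 3 for vector, and ARID1A, a subunit of the BAF remodelling complex, had 4 in G325E and none in the others, with no skipped number around its first exon. The ubiquitin system had 27 of 46 genes and shares of 49.6% for G325E, 24.3% for wild-type and 16.5% for vector. RNF187, a RING finger ligase, had 4, 5 and 3 peaks in that order. Kinases and phosphatases had 22 of 39 genes, with 40.6%, 33.9% and 19.2%, and the intervals of G325E (29.5 to 52.9%) and wild-type (25.8 to 43.1%) overlapped. GSK3A, a glycogen synthase kinase, had 4 peaks in G325E and 4 in wild-type. Vector and wild-type skipped 8 and 9 numbers around the first exon of MLL3, 1 and 1 around that of RNF187, and 1 and 3 around that of GSK3A.

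Solute carriers had 11 of 27 genes, and their first-exon shares were 42.9% for G325E, 14.3% for wild-type and 22.0% for vector. SLC7A5, a transporter of large neutral amino acids, had 6 peaks for G325E, 5 for wild-type and 5 for vector, and SLC12A2, a sodium, potassium and chloride cotransporter, had 6 for G325E alone. Translation factors had 12 of 39 genes, with 15.3%, 6.84% and 9.14%. PABPC1, the poly(A)-binding protein, had 3, 4 and 4 peaks, and GSPT1, the release factor eRF3a, 3, 2 and 3. The hnRNP and SR protein genes had 8 of 24, with 27.9%, 7.29% and 9.26%, and HNRNPUL2 had 8, 2 and 1 peaks while HNRNPDL had 5, 4 and 2. The wild-type list skipped 4 numbers around the first exon of HNRNPUL2, and neither list skipped any around that of HNRNPDL. ZNF genes had 5 of 19, and their share was 11.8% in G325E and 12.04% in wild-type, the only group besides the ribosomal proteins in which G325E was not above wild-type. ZNF703, a transcriptional repressor, had 4, 2 and 3 peaks, and ZNF622 had 6 in wild-type alone. Numbers were also skipped around the first exons of SLC7A5, SLC12A2, PABPC1, GSPT1, ZNF703 and ZNF622, in the vector list, the wild-type list or both.

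Of the other mRNAs that were followed in the study, SET, a phosphatase inhibitor and histone chaperone, had 1 first-exon peak for vector, 1 for wild-type and none for G325E, with 8, 9 and 6 in later exons. HELLS, a chromatin helicase, had 1 in wild-type and 1 in G325E. GNB2L1, the ribosomal scaffold RACK1, HNRNPA2B1, an RNA-binding protein, and PNN, the splicing-associated pinin, had none in any list. Their later exons held 9, 10 and 9 peaks for GNB2L1 in vector, wild-type and G325E, 6, 8 and 0 for HNRNPA2B1, and 3, 7 and 0 for PNN. The canonical first exons of these genes are 215, 175 and 139 bases long, and no member lay nearer than 100 bases to the transcription start. Peaks of the promoter-TSS class, which are not members, numbered 5, 7 and 7 for HNRNPA2B1 and 1, 5 and 8 for SET. HELLS had 0, 2 and 1 of them, and GNB2L1 and PNN had none.

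First-exon peaks lay on the strand opposite to their gene more often than other exon peaks. The opposite strand was listed in 10.2% of them for vector (67 of 656, 8.12 to 12.8%), 8.79% for wild-type (7.29 to 10.6%) and 12.6% for G325E (208 of 1646, 11.1 to 14.3%). For internal exon peaks the figures were 1.57%, 2.50% and 2.62%, and for last exon peaks 3.33%, 2.97% and 5.14%, so the intervals were apart in each list. Over all peaks, promoters and introns included, they were 17.2%, 17.0% and 24.2%. On the gene's strand alone, the first-exon share in G325E exceeded that in wild-type by 19.9 points (18.5 to 21.4). How a strand was given to a peak is not stated in the sources used here.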

How the data were processed

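Ribosome-protected fragments of HEK293T cells were sequenced from 1 library per group. Per the methods of the study, the authors trimmed reads with cutadapt, dropped short reads, mapped them with BWA 0.5.5 to the hg19 genome (GRCh37) and transcript sequences, removed duplicates, called peaks in each sample separately where coverage reached a cut-off, reviewed them by eye and annotated them with HOMER. The deposited lists give start, end, strand, annotation and distance to the transcription start, and neither heights nor read counts. The authors state a minimum length of 10 bases, but 5270 listed peaks are shorter, among them 275 first-exon peaks.

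Here each peak was assigned to a gene through the RefSeq transcript in its annotation. Of 876 first-exon transcripts, 662 were paired with a symbol by the files, 210 by a RefSeq table and 4 by neither, and 21 first-exon peaks had no symbol. Positions were measured on the canonical GENCODE 44 transcript lifted to GRCh37, which 33 first-exon peaks lacked, and GC content on windows of 31 bases. Shares carry 95% Wilson intervals, differences of shares Newcombe intervals and differences of means normal intervals from the standard errors, computed with pandas 2.3.3, scipy 1.17.1 and pysam 0.24.0 after tests on simulated data. Genes were named by these rules: the 10 with most first-exon peaks, the 5 largest excesses of G325E over wild-type and the 5 of wild-type over G325E per 1000 exon peaks, and 2 of each gene list. DDX3X and the mRNAs whose proteins the study measured by Western blot were also named. The members and lists were chosen with earlier results of these data known. Alternatives are given in the closing section.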

Additional observations from a re-analysis of the deposited data

How the results depend on the processing

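Requiring peaks of at least 10 bases moved none of the 21 main values beyond its interval, and numbering exons on the canonical transcript moved none of the 3 share differences. For gene numbers a wide fixed range was used instead of a counting interval, such as 444 to 999 around the 666 genes of G325E. With the longer peaks these numbers were 652 for G325E, 540 for wild-type and 337 for vector. For the first-exon share, G325E minus wild-type, 21.4 percentage points in the report, came to 19.9 on the gene's strand, 24.9 with each gene counted once, 22.9 with promoter-TSS coding peaks added, 9.02 in genes with exon peaks in all lists and 8.82 at equal GC content. Alternatives chosen after seeing the data gave 15.6 without stretches of skipped peak numbers, 25.4 in covered bases and 2.89 in genes of all lists at equal GC content. G325E minus vector, 20.5 points, came to 24.9 per gene, 7.18 in genes of all lists, 8.14 at equal GC content, 14.8 without skipped stretches, 23.8 in covered bases and 1.85 in genes of all lists at equal GC content. No alternative turned these differences.

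With the 5′ end of each peak, G325E minus vector in codons 1 to 20 changed sign, to 0.026 points. The mean GC difference of G325E from wild-type was 3.81 points in genes of all lists, 3.52 in wider windows and 3.93 without skipped stretches, and from vector 3.40, 3.24 and 3.95. G325E first-exon peaks met a wild-type peak in 46.3% on the gene's strand, 33.1% with at least 50% of both peaks shared and 58.2% without skipped stretches. They met a vector peak in 22.3% at that stricter overlap and 43.8% without skipped stretches, and wild-type peaks met a vector peak in 36.2% and 52.1%. No paired analysis was possible because each group was 1 library. The libraries differed in depth, which the lists do not give, peak heights were not used, and the part of depth in these differences was not tested.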

Other observations

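Peaks of the promoter-TSS class whose midpoint lay in the coding part of a canonical first exon, which are not among the first-exon peaks of the report, numbered 164 for vector, 230 for wild-type and 278 for G325E. They were 1.46% of all peaks for vector (interval 1.26 to 1.70%), 1.15% for wild-type (1.02 to 1.31%) and 1.77% for G325E (1.58 to 1.99%), and 6.36%, 5.46% and 5.11% of the promoter-TSS peaks of the same lists. The G325E and vector intervals overlapped.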
